A study of Homo sapiens with 6 samples.

Results

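The cathepsins are a group of proteases, most of them lysosomal, and 10 of their genes were followed here: CTSF, CTSK, CTSL, CTSO, CTSB, CTSC, CTSH, CTSZ, CTSD and CTSA. They were taken by symbol from a table of 60611 genes, and all 10 were found in it. RNA was sequenced in 6 libraries of EndoC-BH5 cells, a line of human insulin-producing beta cells whose genotype is labelled WT. Of these, 3 came from cells given vehicle and 3 from cells given interferon gamma together with interleukin 1 beta, inflammatory cytokines that beta cells meet when immune cells enter the islet. The sources used here give neither the dose nor the length of exposure, and do not state whether the replicates were separate cultures, so p-values reflect only how far these libraries spread, and that spread may be technical. A single line was used, so nothing here measures differences between donors. Total counts ran from 5871481 in vehicle replicate 1 to 16175364 in cytokine replicate 1.

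Cathepsins are made as inactive precursors, tagged with mannose 6-phosphate in the Golgi, carried to endosomes and activated as the compartment acidifies. CTSB, CTSC, CTSF, CTSH, CTSK, CTSL, CTSO and CTSZ are papain-like cysteine proteases, CTSD is an aspartic protease and CTSA a serine carboxypeptidase. Together they degrade proteins delivered by endocytosis and autophagy, in beta cells including aged insulin granules, and some of them trim antigens in the endosomes of antigen-presenting cells. CTSH lies at a locus linked to type 1 diabetes.

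Of the 10 genes, 9 passed the filter on low counts and were tested, and CTSC did not. With cytokines 5 of the 9 rose (CTSO, CTSA, CTSB, CTSL and CTSD) and 2 fell (CTSH and CTSF), while CTSZ and CTSK did not pass the test. The comparison moved most of the transcriptome, since 57.1% of the 17863 tested genes were called, 28.3% higher and 28.8% lower (edgeR quasi-likelihood test, Benjamini-Hochberg adjusted p below 0.05). The median log2 fold change of the 9 genes was 0.32, beside -0.018 over all tested genes. The libraries of the groups did not overlap in 7 of the 9 genes, and in 61% of all tested genes. Changes covered a wide range, from a 9.82-fold rise of CTSO to a 1.94-fold fall of CTSH. Levels are in CPM, counts scaled to a common library total with TMM factors for composition, and a mean ± SD is over n = 3 libraries. A log2 fold change compares cytokine with vehicle and carries its standard error (SE). In bulk RNA a change in the number of cells that express a gene and a change in RNA per cell cannot be told apart.

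**Figure D1:**
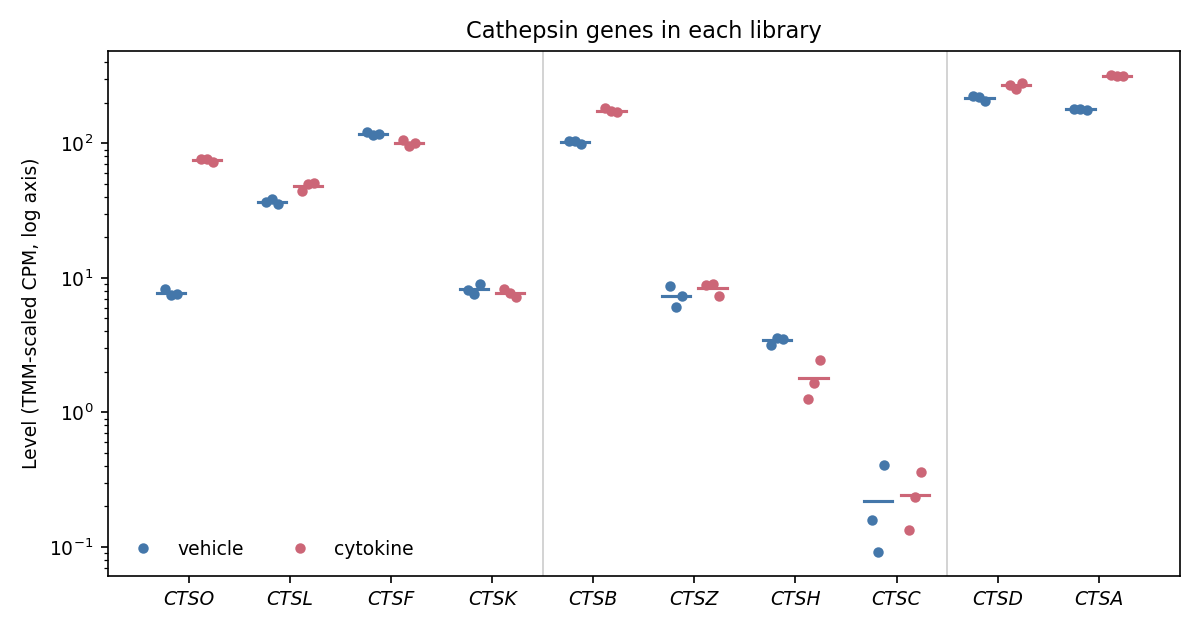
Level of each cathepsin gene in each library, in TMM-scaled CPM on a log axis, with vehicle libraries in blue, cytokine libraries in red and group means as bars. Vertical lines part the cysteine endopeptidases, the cysteine exopeptidases, and CTSD with CTSA, and CTSO is the gene whose groups lie farthest apart.

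The bases before the transcription start are shown for 4 of the genes, because members of 1 lysosomal family moved in opposite directions. The centre of a known lysosomal promoter element can also be read in some of them. That element, called CLEAR, is bound by TFEB and its relatives and has CACGTG at its centre, marked in capitals. Each sequence is the 250 bases before the RefSeq start in GRCh38.p14, written 5′ to 3′ on the strand of the gene.
CTSA, chr20:45891085-45891334, plus strand: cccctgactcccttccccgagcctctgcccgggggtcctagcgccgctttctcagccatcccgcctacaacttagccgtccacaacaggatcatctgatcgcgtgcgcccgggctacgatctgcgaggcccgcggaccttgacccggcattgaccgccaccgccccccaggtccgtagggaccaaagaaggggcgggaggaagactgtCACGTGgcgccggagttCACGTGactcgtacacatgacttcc
CTSD, chr11:1763928-1764177, minus strand: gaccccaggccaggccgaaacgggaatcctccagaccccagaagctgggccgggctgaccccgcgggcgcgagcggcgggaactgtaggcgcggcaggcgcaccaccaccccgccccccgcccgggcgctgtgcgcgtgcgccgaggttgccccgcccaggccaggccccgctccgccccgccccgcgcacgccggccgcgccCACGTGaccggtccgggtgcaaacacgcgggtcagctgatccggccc
CTSF, chr11:66568607-66568856, minus strand: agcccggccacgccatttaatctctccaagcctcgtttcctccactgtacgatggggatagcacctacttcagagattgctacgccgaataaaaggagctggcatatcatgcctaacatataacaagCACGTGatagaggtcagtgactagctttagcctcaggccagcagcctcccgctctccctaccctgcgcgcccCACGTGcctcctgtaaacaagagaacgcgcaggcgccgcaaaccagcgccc
CTSH, chr15:78945047-78945296, minus strand: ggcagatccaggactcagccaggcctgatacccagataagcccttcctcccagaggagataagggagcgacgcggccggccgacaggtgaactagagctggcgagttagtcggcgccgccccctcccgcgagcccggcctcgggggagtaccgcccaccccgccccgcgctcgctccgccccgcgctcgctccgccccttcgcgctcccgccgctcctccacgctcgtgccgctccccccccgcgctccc
The RefSeq table held 7 of the 10 genes, the others being CTSB, CTSK and CTSO. The hexamer CACGTG, which reads the same on both strands, was found in CTSA, CTSD and CTSF. It was found in 6.34% of the 35116 windows of the same length. In CTSA it began 42 and 25 bases before the start, in CTSD 47 bases and in CTSF 123 and 51 bases before it. The longer core TCACGTGA was present in only 1 of the 7 genes, CTSA, and in 0.854% of all windows. CTSA and CTSD rose while CTSF fell, so genes with the hexamer moved in both directions, and CTSA, with the longer core, rose. The interferon-gamma-activated element TTCNNNGAA and the core of the interferon-stimulated response element (GAAA, any 2 bases, GAAA), searched on both strands, were in none of the 7 windows and in 6.57% and 3.02% of all windows. With shares this low, no match in 7 windows is unremarkable, and CTSO and CTSB, which rose, could not be searched. All matches are descriptions of the letters, and annotated transcripts of CTSA, CTSD and CTSH also start outside these windows. In GENCODE, CTSF begins at 66568841, inside its window, so both its hexamers lie after that start.

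Among the cysteine endopeptidases, CTSO stood apart. CTSO encodes a lysosomal cysteine protease that is less well characterised than its relatives. Its level was 8.26, 7.44 and 7.55 CPM in vehicle replicates 1, 2 and 3 and 76.2, 76.2 and 73.2 CPM in cytokine replicates 1, 2 and 3. All 3 cytokine libraries thus lay far above all vehicle libraries, with little spread in either group. The means were 7.75 ± 0.444 and 75.2 ± 1.73 CPM, a log2 fold change of 3.30 with SE 0.101 (edgeR, adjusted p = 3.1e-24). Only 5.96% of tested genes were called higher and changed at least 2-fold, and CTSO, the one cathepsin of the 10 among them, held place 221 of 17863 by the size of its rise. The change ranged from 3.09 to 3.33 over 14 alternative settings and passed in each.

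CTSO lies at 155924118 to 155953917 of chromosome 4 (GRCh38, minus strand), with 1 annotated transcript of 2954 exon bases and no annotated gene overlapping it. The next coding gene on the side of lower coordinates, TDO2, which encodes an enzyme of tryptophan breakdown, lies 3.7 kb away and had at most 2 counts in any library. ASIC5, on the same side, had at most 1 count in any library. Coding neighbours on the other side were 806.5 kb away or more. PDGFC there had at most 3 counts in any library, and GLRB fell by 1.26 on the log2 scale (edgeR, adjusted p = 9.3e-10). GLRB, 1122.1 kb away, was the only one of these with enough counts to be tested. Whether the nearer genes changed could therefore not be measured. These neighbours were chosen for reading after the value of CTSO was known.

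Among the tested genes whose course over the 6 libraries lay nearest to that of CTSO were MAFF and B2M. Likeness was the largest difference of log2(CPM + 0.5), centred on each gene's mean, in any of the 6 libraries. It was 0.11 for MAFF, a small MAF transcription factor, and 0.11 for B2M, the light chain of MHC class I. A fold change of a size like that of CTSO follows from being picked by this measure. MAFF went from 4.73 to 48.6 CPM.

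CTSL, a broadly acting lysosomal endopeptidase that also processes prohormones and the class II invariant chain, rose modestly. It had 36.5, 38.4 and 35.3 CPM with vehicle and 44.5, 49.6 and 51.0 CPM with cytokines. The groups did not overlap, and the lowest cytokine library was replicate 1. The log2 fold change was 0.40 with SE 0.0660 (edgeR, adjusted p = 6.8e-06), or 1.32-fold. Scaling by library size alone gave 0.20 (edgeR, adjusted p = 0.01). CTSL has related pseudogene copies, and how reads shared with them were counted is not stated, so its level is uncertain.

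CTSF, a cysteine protease active in lysosomal protein turnover, fell by a small amount. Its level was 122, 116 and 118 CPM with vehicle and 106, 96.3 and 99.9 CPM with cytokines. The groups did not overlap, although the gap between vehicle replicate 2 and cytokine replicate 1 was small. The log2 fold change was -0.23 with SE 0.0514 (edgeR, adjusted p = 0.00018), and -0.43 when scaled by library size only.

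CTSK, the collagen-degrading protease best known from osteoclasts, did not pass the test. It had 8.10, 7.62 and 9.01 CPM with vehicle and 8.32, 7.78 and 7.24 CPM with cytokines, and the groups overlapped. The log2 fold change was -0.10 with a 95% interval from -0.36 to 0.15 (edgeR, adjusted p = 0.46). It passed at -0.31 when scaled by library size only (edgeR, adjusted p = 0.024), a setting that moved the median of all tested genes to -0.22. Without vehicle replicate 3, the highest vehicle library, the change was -7.2e-05.

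CTSK sits beside CTSS, a cathepsin gene that is not among the 10, with 30.3 kb between them on the minus strand of chromosome 1. CTSS, which cleaves the invariant chain in antigen-presenting cells, had 2, 4 and 9 counts with vehicle but 117.7, 117.3 and 117.6 CPM with cytokines. Its log2 fold change was 8.04 with SE 0.375, a value that rests on those few vehicle counts. CTSS passed the count filter only through the cytokine libraries, so it is given here as a description beside CTSK, and the difference between the changes of CTSS and CTSK was not tested. ARNT, on the other side of CTSK at 1.4 kb, did not pass the test, with a log2 fold change of -0.092.

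Among the cysteine exopeptidases, which trim proteins from their ends, CTSB rose and CTSH fell. CTSB, an abundant peptidyl-dipeptidase that can also cut inside chains and is known for its release from damaged lysosomes, had 105, 104 and 99.1 CPM with vehicle and 183, 174 and 170 CPM with cytokines. Every cytokine library was above every vehicle library. The means were 103 ± 3.07 and 176 ± 6.73 CPM, a log2 fold change of 0.78 with SE 0.0506 (edgeR, adjusted p = 2.4e-14), or 1.72-fold. Over 14 alternative settings the change ranged from 0.58 to 0.82 and passed in each.

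CTSH, an aminopeptidase, was the cathepsin that fell most. It had 3.18, 3.58 and 3.51 CPM with vehicle and 1.27, 1.65 and 2.46 CPM with cytokines. These levels rested on 20, 39 and 60 counts with vehicle and 19, 21 and 34 with cytokines. The groups did not overlap, but the cytokine libraries spread widely, with replicate 3 nearest to vehicle. The means were 3.42 ± 0.217 and 1.79 ± 0.612 CPM, a log2 fold change of -0.96 with SE 0.221 and a 95% interval from -1.41 to -0.51 (edgeR, adjusted p = 0.000401). Leaving out cytokine replicate 1 gave -0.73 (edgeR, adjusted p = 0.0083). Leaving out cytokine replicate 3 gave -1.25 (edgeR, adjusted p = 7.6e-05). Tested against a fold of 1.5 with glmTreat, it did not pass (edgeR, adjusted p = 0.094).

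CTSH lies at 78921058 to 78949574 of chromosome 15 (GRCh38, minus strand), with 19 annotated transcripts. Its nearest coding neighbours are MORF4L1, a chromatin protein gene 22.9 kb away at lower coordinates, and RASGRF1, a Ras exchange factor gene 10.4 kb away at higher coordinates. RASGRF1 had 16.2, 14.3 and 16.2 CPM with vehicle and 6.06, 6.21 and 4.78 CPM with cytokines. It thus fell without overlap, by 1.45 on the log2 scale with SE 0.121 (edgeR, adjusted p = 6e-12). MORF4L1 rose by little, with a log2 fold change of 0.12 (edgeR, adjusted p = 0.016). CTSH and the nearest coding gene on 1 side of it therefore fell in these libraries while the nearest on the other side did not. Farther out, ANKRD34C at higher coordinates fell by 0.87 on the log2 scale (edgeR, adjusted p = 0.0057). ADAMTS7 at lower coordinates did not pass, with a log2 fold change of -0.67 (edgeR, adjusted p = 0.056). Both had at most 33 counts in any library.

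The tested genes with a course nearest to CTSH were EIF4E1B, C15orf48 and SCRT1, with largest differences of 0.12, 0.13 and 0.15 on the log2 scale over 6 libraries. EIF4E1B went from 1.33 to 0.483 CPM and C15orf48 from 2.01 to 0.822 CPM, so these likenesses rest on low counts. SCRT1, a neuroendocrine zinc-finger repressor, went from 18.3 to 10.1 CPM.

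CTSZ, a carboxypeptidase, had 8.73, 6.06 and 7.31 CPM with vehicle and 8.85, 8.96 and 7.39 CPM with cytokines. The groups overlapped through vehicle replicate 1 and cytokine replicate 3. Its log2 fold change was 0.22 with a 95% interval from -0.038 to 0.49 (edgeR, adjusted p = 0.14). Without cytokine replicate 3 it was 0.32 and passed (edgeR, adjusted p = 0.046).

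CTSC, the dipeptidyl peptidase that activates granzymes and neutrophil proteases in immune cells, was almost silent. Its counts were 1, 1 and 7 with vehicle and 2, 3 and 5 with cytokines. Over each group that is 9 and 10 counts, a ratio of cytokine to vehicle of 0.917 with a 95% counting interval from 0.335 to 2.55. A change was not detectable at this depth, and the interval covers counting error only.

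CTSD, the main lysosomal aspartic protease, rose by a small amount. It had 223, 220 and 206 CPM with vehicle and 273, 255 and 281 CPM with cytokines. The groups did not overlap. The log2 fold change was 0.32 with SE 0.0471 (edgeR, adjusted p = 6.8e-07), or 1.25-fold. Scaling by library size alone gave 0.12 (edgeR, adjusted p = 0.02). The level of CTSD is uncertain, because a protein-coding gene model, ENSG00000250644, for which the deposited table gives no name, shares 1304 exon bases with it on the same strand. That model held counts equal to 62.6% of those of CTSD with vehicle and 63.0% with cytokines. Counted together, which was tried after the data were seen, both had 352 ± 13.8 and 439 ± 22.2 CPM, and the log2 fold change was 0.32 (edgeR, adjusted p = 3.1e-07). The overlap thus bears on how high CTSD is, and left the size of its change as it was.

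CTSA, which trims peptides and also shields the lysosomal enzymes beta-galactosidase and neuraminidase from degradation, rose 1.78-fold. It had 180, 182 and 178 CPM with vehicle and 325, 315 and 319 CPM with cytokines. No library of one group came near the other. The log2 fold change was 0.83 with SE 0.0475 (edgeR, adjusted p = 2.7e-16), between 0.63 and 0.85 over 14 alternative settings. Of its partners in that complex, GLB1 rose by 0.24 and NEU1 by 0.56 on the log2 scale (edgeR, adjusted p = 1.0e-04 and 3.9e-11). NEURL2 and PLTP overlap CTSA on the opposite strand, with 1038 and 200 shared exon bases. They had far fewer counts than CTSA, at most 153 and 126 in any library, and did not pass the test.

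**Figure D2:**
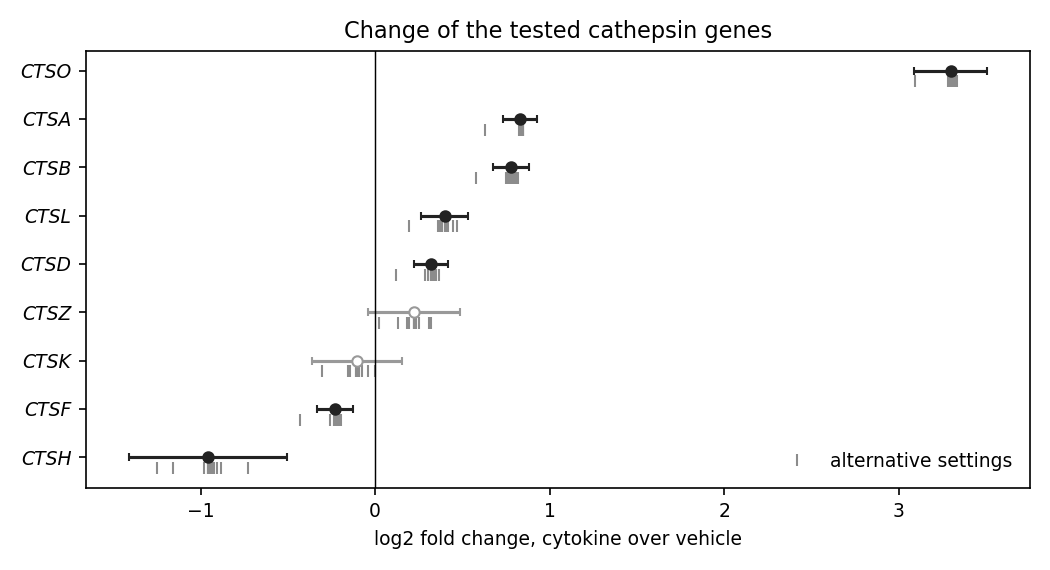
Log2 fold change of cytokine over vehicle for the 9 tested cathepsin genes, with 95% intervals. Filled points passed the test, open points did not, and grey ticks are the values under alternative settings, the lowest of which for CTSO, 3.09, is that of scaling by library size alone.

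Per length, levels can be compared between the genes. With CPM divided by the kb of all annotated exon bases, CTSD was highest in vehicle libraries at 69.3 ± 2.91 CPM per kb, followed by CTSF at 40.9 ± 1.12, CTSA at 30.7 ± 0.308, CTSL at 15.5 ± 0.652 and CTSB at 13.8 ± 0.412 CPM per kb. CTSK at 4.37 ± 0.373 and CTSZ at 3.62 ± 0.656 CPM per kb overlapped between libraries, and CTSO followed at 2.62 ± 0.150 CPM per kb. CTSH was at 0.581 ± 0.0369 CPM per kb and CTSC at 0.0193 ± 0.0147 CPM per kb. With cytokines CTSO reached 25.5 ± 0.585 CPM per kb, close to CTSB at 23.6 ± 0.906 and to CTSS at 27.8 ± 0.0492 CPM per kb. Some of these places depend on the length used. With the longest coding transcript in its place, a choice made after the data were seen, CTSA was at 83.6 and CTSF at 58.2 CPM per kb in vehicle libraries, and CTSB at 26.5 CPM per kb was above CTSL at 16.9 CPM per kb. By that length CTSZ and CTSK again overlapped between vehicle libraries, and in cytokine libraries CTSA was above CTSD and CTSB above CTSO. The levels of CTSD leave out ENSG00000250644, which held counts equal to 63.0% of those of CTSD with cytokines. The order of CTSA and CTSD is therefore uncertain.

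The make-up of the cathepsin transcripts shifted with cytokines. Summed over the 10 genes, the level was 181 ± 4.41 CPM per kb in vehicle and 254 ± 5.25 CPM per kb in cytokine libraries. CTSO made up 1.51%, 1.39% and 1.44% of that sum with vehicle and 10.02%, 10.42% and 9.69% with cytokines. With the longest coding transcript as the length, the shares of CTSO were 0.871% and 5.94% on average, and those of CTSA were 27.8% and 34.6%, the largest of the 10 with cytokines. By exon bases the share of CTSA went from 16.9% ± 0.357 to 21.5% ± 0.212, while that of CTSF went from 22.5% ± 0.538 to 13.7% ± 0.410 and that of CTSD from 38.2% ± 0.772 to 34.0% ± 1.07. A lower share did not mean a lower level, since CTSD rose. The shares are descriptions and were not tested. They leave out the counts of ENSG00000250644, so the shares of CTSD, and with them those of the other genes, are uncertain. Whether CTSA or CTSD had the largest share with cytokines is thus also uncertain.

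**Figure D3:**
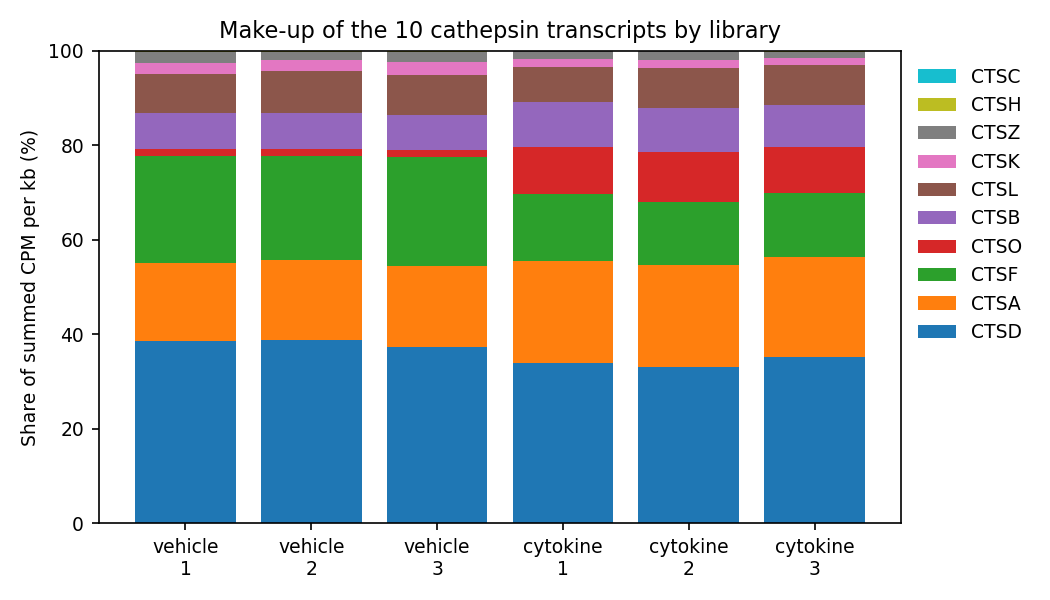
Share of each gene in the summed CPM per kb of the 10 cathepsin genes, in percent, for each of the 6 libraries. The CTSO segment is thin in the 3 vehicle libraries and near 10% in the 3 cytokine libraries, and CTSH and CTSC are too small to see.

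Cystatins are small proteins that inhibit cysteine cathepsins. Of 9 listed cystatin genes, 2 passed the count filter, and the others had at most 2 counts in any library. CST3, the secreted cystatin C, had 253, 209 and 229 CPM with vehicle and 248, 244 and 268 CPM with cytokines. These groups overlapped, and its rise, with a log2 fold change of 0.14 (edgeR, adjusted p = 0.022), was lost when scaled by library size only, at an adjusted p of 0.01, and without vehicle replicate 3 or cytokine replicate 3. CSTB, the cytosolic cystatin B, went from 43.6 to 47.3 CPM and did not pass (edgeR, adjusted p = 0.077). Of 5 cathepsin genes outside the 10, CTSS was higher as given above, CTSV had a log2 fold change of -0.36 (edgeR, adjusted p = 0.16), and CTSE, CTSG and CTSW had at most 1 count in any library.

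Other lysosomal peptidases were also mixed: 5 of 8 rose, NAPSA fell and 2 did not pass, beside 28.3% higher and 28.8% lower over all tested genes. LGMN, the asparaginyl endopeptidase that activates several cathepsin precursors, rose most, from 71.8, 68.5 and 73.8 CPM with vehicle to 258, 248 and 253 CPM with cytokines. That is a 3.54-fold rise with no overlap (edgeR, adjusted p = 4.3e-23). NAPSA, an aspartic protease, had 3.65, 1.29 and 1.35 CPM with vehicle and at most 1.18 CPM with cytokines, and its call (edgeR, adjusted p = 0.028) was lost in DESeq2, at an adjusted p of 0.01, and without vehicle replicate 1 or cytokine replicate 1. Scaled by library size only, 3 of the 8 rose and 3 fell, beside 2980 higher and 8791 lower among all tested genes. The number that rose was also 3 without vehicle replicate 3, without cytokine replicate 1, and at an adjusted p of 0.01.

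Of 6 listed endosomal partners of class II presentation, 4 passed the filter and were called higher. HLA-DOB passed it only through its cytokine libraries, so its call followed from the filter. Only CD74, IFI30 and HLA-DMA can be set beside the 28.3% of all tested genes called higher. DESeq2 called 3 of the 4. CD74, the invariant chain that cathepsins cleave, rose 5.32-fold from 123 to 651 CPM (edgeR, adjusted p = 1.4e-26). IFI30, a lysosomal thiol reductase that unfolds antigens for them, rose 52.3-fold from 4.28 to 213 CPM (edgeR, adjusted p = 2.7e-29). HLA-DMA went from 1.21 to 2.27 CPM, while HLA-DOB, with 0 counts in vehicle, was at least 12.4-fold higher, taking 3 counts over the vehicle group as the floor. HLA-DMB, below the filter, had 2 counts over the vehicle group and 16 over the cytokine group.

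The other parts of the lysosome mostly rose by small amounts. For comparison, 28.3% of all tested genes were called higher and 28.8% lower. Of 31 lysosomal hydrolase genes, 19 rose, 2 fell and 10 did not pass, with a median log2 fold change of 0.25. HGSNAT, an acetyltransferase of heparan sulfate breakdown, fell by 0.44 on the log2 scale. Of 15 tested lysosomal membrane genes, 11 rose and MCOLN1, a lysosomal calcium channel, fell by 0.31, while LAMP3 rose 12.1-fold to 143 CPM. Of 21 tested subunits of the V-ATPase, the pump that acidifies lysosomes, 15 rose and 3 fell, with ATP6V1C2 rising 1.80-fold to 1.99 CPM and ATP6V1G2 falling by 0.90 on the log2 scale. Only 1 pump gene was lower in DESeq2, with no count filter, at an adjusted p of 0.01, without vehicle replicate 3 and without cytokine replicate 1. Scaled by library size only, 13 hydrolase genes rose and 8 fell, 8 membrane genes rose and 3 fell, and 8 pump genes rose and 4 fell. By that setting 2980 of all tested genes were higher and 8791 lower.

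Of 9 genes for mannose 6-phosphate tagging and sorting, 5 rose, 2 fell and 2 did not pass. Over all tested genes 28.3% were higher and 28.8% lower. IGF2R, the large mannose 6-phosphate receptor, rose 1.37-fold to 357 CPM, and GNPTAB, which encodes the enzyme that starts the tag, fell by 0.27 on the log2 scale. In DESeq2 and without vehicle replicate 3, 5 genes rose and 0 were lower, and 1 was lower without cytokine replicate 2 or without cytokine replicate 3. Scaled by library size only, 3 rose and 3 fell, beside 2980 higher and 8791 lower among all tested genes. Of the factors that bind the CLEAR element, TFE3 rose 1.34-fold to 85.0 CPM and MITF 1.77-fold to 3.47 CPM. TFEB did not pass, with 18.1 and 18.4 CPM (edgeR, adjusted p = 0.87).

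**Figure D4:**
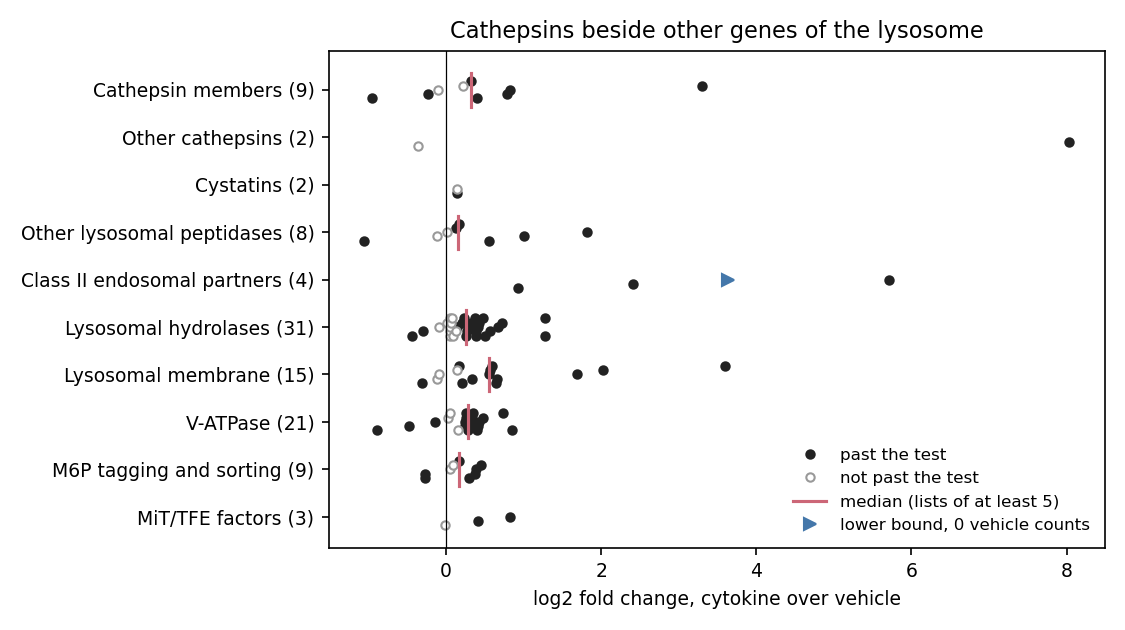
Log2 fold change of cytokine over vehicle for the tested cathepsin genes and for other lists of lysosomal genes, with the number tested in brackets. Filled points passed the test, red bars are medians of lists of at least 5 tested genes, and the triangle is the lower bound of HLA-DOB. Medians of the larger lists lie between 0.15 and 0.56, and CTSO, LAMP3, IFI30 and CTSS lie far to the right.

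Macrophages are rich in cathepsins, so markers of other cell types were read in the same libraries. Of 8 macrophage markers 6 were below the count filter, with at most 8 counts in any library, and PTPRC, which marks all leukocytes, had 5 counts in each group. The tested ones were CD14, at 2.63 CPM with vehicle and 2.06 CPM with cytokines, and AIF1, at 0.961 and 0.729 CPM. Neither passed the test (edgeR, adjusted p = 0.2 and 0.25). Summed over all 8 macrophage markers, the level was 4.29 to 4.50 CPM in vehicle and 3.46 to 3.93 CPM in cytokine libraries. Endothelial markers summed to at most 0.936 CPM in any library. Fibroblast markers summed to 2.94 to 3.86 CPM in vehicle and 12.1 to 13.97 CPM in cytokine libraries, most of it PDGFRB, and its part in the results was not tested, while the 4 other fibroblast markers were below the count filter. Of these COL1A1 had 8 counts with vehicle and 26 with cytokines, a ratio of 2.68 with a 95% counting interval from 1.18 to 6.85, DCN had 6 and 11 counts, COL3A1 had 1 and 3, and LUM had 0 and 1. Of the acinar and ductal markers PRSS1 was at 0 and KRT19 was at 161 CPM with vehicle and 135 CPM with cytokines. CPA1, an acinar marker, had a mean of 65 counts with vehicle and 72.7 with cytokines by the authors' group means, which are not scaled for depth. In the authors' deposited table its log2 fold change was -0.11 with an FDR of 0.93. CELA3A, PNLIP and CFTR were below the count filter, with at most 3 counts in any library. All 7 beta-cell markers were expressed, with a summed level of at least 20880 CPM in each library, most of it CHGA. Of the 7, 4 were called higher and 3 lower, beside 28.3% and 28.8% of all tested genes. SLC30A8, PDX1 and INS fell, with log2 fold changes of -1.11, -0.53 and -0.14. IAPP, PCSK1, CHGA and NKX6-1 rose, with 1.04, 0.74, 0.63 and 0.12.

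The authors' deposited table gives the same direction for each of the 9 tested genes. Its log2 fold change was 3.30 for CTSO, 0.84 for CTSA, 0.79 for CTSB and -1.05 for CTSH. In the authors' deposited table CTSZ and CTSK had an FDR of 0.25 and 0.84.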

How the data were processed

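RNA was measured in 6 libraries, grouped by sample title. The authors deposited an estimated count per gene and library, not normalised and not always whole, and their own group means, log2 fold change, mean log2 CPM, F (a score) and p-value with its FDR, per the file headers. Per the submitters' processing notes, cutadapt 2.10, STAR 2.7.5a, HTSeq 0.12.4 and GRCh38 were used, with no role given for any. The library kit was directional, per the labels' protocols, but whether counting used strand is not given in the sources used here. Columns carrying NT were taken as vehicle.

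Counts were rounded, filtered with filterByExpr (17863 genes left) and tested with edgeR 4.0.16 in R 4.3.3 (TMM scaling, robust quasi-likelihood fit on group, Benjamini-Hochberg adjustment at 0.05 over all tested genes). SE was the Wald error of the same fit with the quasi-dispersion held at or above 1, chosen after the data were seen because dividing the log2 fold change by the root of F fell below counting error for large changes. Tests and calls do not use it. DESeq2 1.42.0 was an alternative. Scripts were tested on simulated data. Exon lengths and coordinates came from GENCODE 29 on GRCh38, which held 58352 identifiers, and promoter windows from RefSeq.

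The members and lists were chosen with earlier results of these data known. The rule for named genes took the 10 members, the cathepsin, cystatin and class II lists, the strongest called rise and fall of each other list among genes reaching 1 CPM in either group, the neighbours of CTSH and genes overlapping a member, and the 3 nearest courses to CTSH and to the members that changed most. GLB1, NEU1, TFEB, ARNT, ADAMTS7, ANKRD34C, the neighbours of CTSO and the marker genes named were chosen after their values were known. Replicates of a group differed by more than counting noise (chi-square per gene 1.37 to 2.45). Some genes that the rule names are not reported here.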

Additional observations from a re-analysis of the deposited data

How the results depend on the processing

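The cathepsin calls, 5 higher and 2 lower, were the same under DESeq2 size factors, DESeq2, both other count filters, an adjusted p of 0.01 and the replicate block. Leaving out 1 library in turn gave 5 to 6 higher and 2 to 2 lower, since CTSZ passed without cytokine replicate 3. With scaling by library size alone 5 were higher and 3 lower, since CTSK passed, and all tested genes split into 2980 higher and 8791 lower in place of 5061 and 5140. DESeq2 called 3365 genes lower. With glmTreat against a fold of 1.5, which asks for larger changes by construction, 3 cathepsins were higher (CTSO, CTSA and CTSB), 0 were lower, and 2344 genes were called in place of 10201. Without 1 library the number of called genes was 8932 to 9871. No cathepsin changed direction in any of the alternatives, and the cause of the other shifts was not tested. Replicate numbers are shared by the groups, but same-numbered libraries did not deviate together (r from -0.0568 to 0.0134). Differently numbered libraries had r from -0.0116 to 0.0623. With 3 libraries per group this cannot exclude a weak pairing. With the number as a replicate block 10098 genes were called, the cathepsin log2 changes were 3.29 for CTSO and -0.88 for CTSH, and no cathepsin call changed. Depth limits CTSH and CTSC most, at 60 and 7 counts at most in any library.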
